A study of Mus musculus with 6 samples.

Results

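The variable (V) segments of the mouse immunoglobulin heavy chain, called Ighv, were described in RNA-seq of bone marrow cells. All genes of the deposited count table with the biotype IG_V_gene and a name starting with Ighv were taken, which gave 113 segments of 54532 genes. A further 70 Ighv genes listed as pseudogenes and 2 listed as IG_LV_gene were not members. The cells came fresh from the femur of wild-type (WT) mice, and 6 libraries fell into 2 groups of 3. Mice of the control group had no treatment, and mice of the unloaded group had 4 weeks of hindlimb unloading, in which the hind legs bear no weight, as a model of osteoporosis. The labels give no strain, age or sex, and no statement that replicates were separate animals. Each p-value therefore reflects only how far these samples varied, which may be technical.

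A heavy chain gene is assembled in each B cell precursor by V(D)J recombination, in which the RAG proteins join a D segment to a J segment and then a V segment to that DJ unit. The V segment encodes the leader peptide and most of the domain that binds antigen, so each B cell and its descendants transcribe mainly the V segment they chose. Bone marrow holds the precursors that make this choice, newly formed B cells, and plasma cells that carry very large amounts of immunoglobulin mRNA. Subgroups, given by the number after Ighv, collect segments of similar sequence, and Ighv1 is the largest subgroup in the mouse. Counts per V segment measure how much RNA carries it, and they do not identify rearranged clones.

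Every segment lay on the minus strand of chromosome 12 of mm10, between position 113578504, the start of Ighv5-2, and 116000461, the end of Ighv1-85. The segment nearest the J segments was Ighv5-2 and the farthest was Ighv1-85, with 2422 kb from end to end. All 113 deposited positions were identical to those of GENCODE M21, from which the coding sequences were taken. A typical segment had a leader exon of 46 bases, an intron of 83 bases and a V exon (medians), and 111 of the 113 had this structure of 2 coding exons. Sequences were close to one another. The most similar other member was 94.9% identical over the coding bases for the median segment, 55 segments had a neighbour of at least 95% identity, and for 108 of 113 it belonged to the same subgroup.

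The sequences below are those of segments whose counts carry the comparisons that follow. For comparison another Ighv1 segment was taken, not always the nearest in sequence. Each sequence is the last 294 of 351 coding bases, from base 58 counted from the start codon to the end of the germline V exon, 5′ to 3′ on the minus strand. Capitals mark the bases that differ from the segment named for comparison. Ighv1-15 (chr12:114657353-114657646), which had the smallest p-value of the comparison, differed from Ighv1-23 (chr12:114764450-114764743) at 7 of 351 coding bases, 5 of them in the stretch shown.
Ighv1-15: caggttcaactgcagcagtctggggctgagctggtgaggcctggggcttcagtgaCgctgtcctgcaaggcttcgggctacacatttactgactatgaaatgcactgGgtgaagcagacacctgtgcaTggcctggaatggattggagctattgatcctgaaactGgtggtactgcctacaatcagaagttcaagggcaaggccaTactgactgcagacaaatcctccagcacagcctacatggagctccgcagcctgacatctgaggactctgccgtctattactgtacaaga
Ighv1-23: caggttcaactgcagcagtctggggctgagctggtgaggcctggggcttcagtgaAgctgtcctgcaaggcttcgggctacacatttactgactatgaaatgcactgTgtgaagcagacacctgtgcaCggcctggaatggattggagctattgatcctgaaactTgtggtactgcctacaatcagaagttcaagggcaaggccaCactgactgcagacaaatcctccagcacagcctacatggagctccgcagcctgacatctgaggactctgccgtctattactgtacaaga

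Ighv1-26 (chr12:114788372-114788665), the segment with the largest mean share, differed from Ighv1-18 (chr12:114682632-114682925) at 11 of 351 coding bases (96.9% identity), 8 of them in the stretch shown.
Ighv1-26: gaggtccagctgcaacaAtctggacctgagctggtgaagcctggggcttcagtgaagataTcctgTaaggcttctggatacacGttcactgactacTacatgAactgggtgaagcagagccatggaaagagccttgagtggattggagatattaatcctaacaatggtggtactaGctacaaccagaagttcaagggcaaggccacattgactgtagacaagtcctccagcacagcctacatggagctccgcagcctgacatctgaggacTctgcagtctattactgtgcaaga
Ighv1-18: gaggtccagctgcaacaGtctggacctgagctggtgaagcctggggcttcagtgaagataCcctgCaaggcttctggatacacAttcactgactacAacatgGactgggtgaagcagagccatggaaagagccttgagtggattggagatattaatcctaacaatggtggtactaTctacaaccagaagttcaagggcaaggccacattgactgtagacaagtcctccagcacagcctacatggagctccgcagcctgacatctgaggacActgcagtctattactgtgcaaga

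The neighbours Ighv1-77 (chr12:115861867-115862160) and Ighv1-78 (chr12:115868773-115869066) were both high in the same library. They differed at 34 of 351 coding bases (90.3% identity), 30 of them in the stretch shown.
Ighv1-77: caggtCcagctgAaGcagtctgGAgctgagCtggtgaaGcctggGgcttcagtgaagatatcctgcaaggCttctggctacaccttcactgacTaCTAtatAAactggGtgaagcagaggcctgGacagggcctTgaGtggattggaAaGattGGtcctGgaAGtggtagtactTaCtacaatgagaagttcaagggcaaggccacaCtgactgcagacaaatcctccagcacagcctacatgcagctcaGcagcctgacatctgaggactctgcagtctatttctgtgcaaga
Ighv1-78: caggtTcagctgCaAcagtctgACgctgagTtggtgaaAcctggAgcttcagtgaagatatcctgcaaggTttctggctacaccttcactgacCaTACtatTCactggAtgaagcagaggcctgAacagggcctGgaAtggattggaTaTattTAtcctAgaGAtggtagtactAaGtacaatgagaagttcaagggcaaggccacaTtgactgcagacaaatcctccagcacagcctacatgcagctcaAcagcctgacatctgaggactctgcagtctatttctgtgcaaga

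Ighv1-85 (chr12:116000028-116000321), the other segment with no overlap between groups and more RNA after unloading, is printed against Ighv1-15, from which it differed at 51 of 351 coding bases (85.5% identity), 46 of them in the stretch shown.
Ighv1-85: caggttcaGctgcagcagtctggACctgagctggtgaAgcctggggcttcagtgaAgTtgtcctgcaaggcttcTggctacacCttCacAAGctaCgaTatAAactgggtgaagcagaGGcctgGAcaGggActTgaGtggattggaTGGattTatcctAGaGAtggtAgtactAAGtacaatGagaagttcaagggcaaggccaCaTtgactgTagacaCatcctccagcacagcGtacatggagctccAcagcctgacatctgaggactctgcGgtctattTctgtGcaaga

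Such similarity limits what a short read can tell. Of all stretches of 50 bases in a segment's coding sequence, a median of 77.7% occurred in no other Ighv gene or pseudogene. In 16 segments fewer than 50% were unique in this sense. The extreme was Ighv1-71 and Ighv1-62-2, which differed at 1 of 359 bases and had only 2.58% unique stretches each. Ighv1-71 had 2, 0 and 4 counts in control 1 to 3 and 3, 3 and 2 in unloaded 1 to 3, and Ighv1-62-2 had 3, 5 and 7 and then 8, 2 and 0. The 16 segments with few unique stretches had a median of 52.5 counts over all libraries, against 169 for the 46 segments with 50% to 80% unique and 136 for the 51 above that. The counting of reads with several alignments, and the use of strand, is not given in the sources used here. The split of counts among near-identical segments, and between a segment and any gene overlapping it, is therefore uncertain.

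The libraries held 15850986 to 17775506 counts each. At these depths 3 counts, the limit that a count of 0 allows, correspond to 0.169 to 0.189 CPM (counts scaled to a common library total). The unloaded 1 library stood apart. On the leading principal component (34.8% of the variance in log2 CPM) it scored 51.3 and the others -13.7 to -7.37, and mitochondrial genes took 0.439% of its counts against 1.05% to 1.27% elsewhere. Fold changes of named Ighv segments that rest on it, and counts over the gene lists, are given with and without it. Over the Ighv segments alone, chi-square per degree of freedom between any pair was 11.03 to 30.95, well above sampling noise, so each library counted once.

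The summed level of Ighv RNA overlapped between the groups. Summed counts over the 113 segments were 4959, 7731 and 5050 in control 1 to 3 and 5815, 6938 and 3721 in unloaded 1 to 3. After scaling for library size and composition (TMM), the sums were 284, 466 and 297 CPM in control and 371, 409 and 230 CPM in unloaded libraries. Control 2 was the highest library and unloaded 3 the lowest, and the groups overlapped. The means were 349 ± 101.8 and 336 ± 94.3 CPM (SD, n = 3 each). The difference of -12.42 CPM was far smaller than that spread. It became 46.2 CPM without control 2 and -29.52 CPM without unloaded 1. In bulk RNA, fewer cells of a type and less RNA per cell cannot be told apart.

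The sum followed Ighm, the constant gene of IgM, more closely than Igha, that of IgA. Ighm, the first constant gene used by new B cells, had 1077, 2880 and 1266 CPM in control and 2158, 1941 and 783 CPM in unloaded libraries, with the highest and lowest values in the same libraries as the Ighv sum. Igha, which is used by mucosal-type plasma cells, was lowest in control 2, with 1390, 1027 and 1253 CPM in control against 1582, 1434 and 1400 CPM in unloaded libraries. The 8 heavy chain constant genes together had 9.64 to 12.3 counts for each Ighv count. V segments of the kappa light chain (Igkv), which pair with the heavy chain, summed to 404 ± 105 CPM in control and 397 ± 120 CPM in unloaded libraries (SD, n = 3), also with overlap.

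Usage was broad. Of the 113 segments, 106 had at least 1 count, 84 had counts in all 6 libraries, and the median segment had 146 counts in all. The 7 segments with no count were Ighv5-12-4, Ighv7-2, Ighv11-1, Ighv16-1, Ighv6-4, Ighv6-7 and Ighv1-16. A total of 0 in a library allows up to 3 counts. Ighv11-1 is 98.9% identical to Ighv11-2, which had 26, 94 and 52 counts in control and 52, 53 and 58 in unloaded libraries. In each of the 2, 47.7% of 50-base stretches were unique, so they are separable over only part of their sequence. How reads were divided between them was not tested. By contrast Ighv5-12-4, Ighv16-1, Ighv6-4 and Ighv6-7 shared no stretch of 50 bases with another member.

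Ighv1-26 had the largest mean share of Ighv counts, though only 51.0% of its 50-base stretches were unique. Its counts were 214, 499 and 293 in control and 480, 418 and 179 in unloaded libraries, or 4.32%, 6.45% and 5.80% against 8.25%, 6.02% and 4.81% of all Ighv counts. The groups overlapped, with 5.52% ± 1.10 and 6.36% ± 1.75 (SD, n = 3). Per kilobase of gene length, which allows segments to be compared, Ighv1-26 was also first, at a mean of 59.7 CPM per kb over the 6 libraries. Ighv1-81 followed at 50.04, Ighv8-8 at 40.0, Ighv1-80 at 36.7 and Ighv3-6 at 35.2 CPM per kb. Of the 10 segments with the largest share, 9 were also among the 10 with the highest level per kb.

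Ighv1-81 split the libraries without regard to group. Its share was 8.55%, 3.13% and 7.80% in control 1 to 3 and 3.18%, 2.77% and 8.84% in unloaded 1 to 3. Control 1, control 3 and unloaded 3 were high, and these were the 3 libraries with the lowest summed Ighv level. Wilson 95% intervals ran from 7.09% to 9.80% over these 3 libraries and from 2.41% to 3.66% over the other 3. These intervals treat each count as an independent draw. They cover counting error only and not which cells were sampled, and counts from the same cell or molecule would make them too narrow.

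Of the other leading segments, Ighv3-6 had shares that did not overlap between groups, at 5.28%, 3.92% and 3.80% in control and 2.30%, 3.07% and 3.63% in unloaded libraries. Ighv8-8 ranged from 2.06% (control 3) to 5.70% (control 2) and Ighv1-80 from 1.49% (control 1) to 4.79% (control 3), with the unloaded libraries inside both ranges. Ighv9-3 reached 6.88% in control 2 and lay between 1.88% and 3.41% in the other 5 libraries. Ighv1-82 and Ighv1-55 both peaked in unloaded 2, at 7.09% and 6.85%, with 1.05% to 3.61% and 2.17% to 3.86% elsewhere. The shares of Ighv9-3, Ighv1-82 and Ighv1-55 overlapped between groups. Ighv5-17 had 2.93% ± 0.900 in control and 1.99% ± 0.373 in unloaded libraries, and Ighv1-53 had 3.00% ± 0.654 and 1.81% ± 1.02 (SD, n = 3). Both overlapped between groups.

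**Figure D1:**
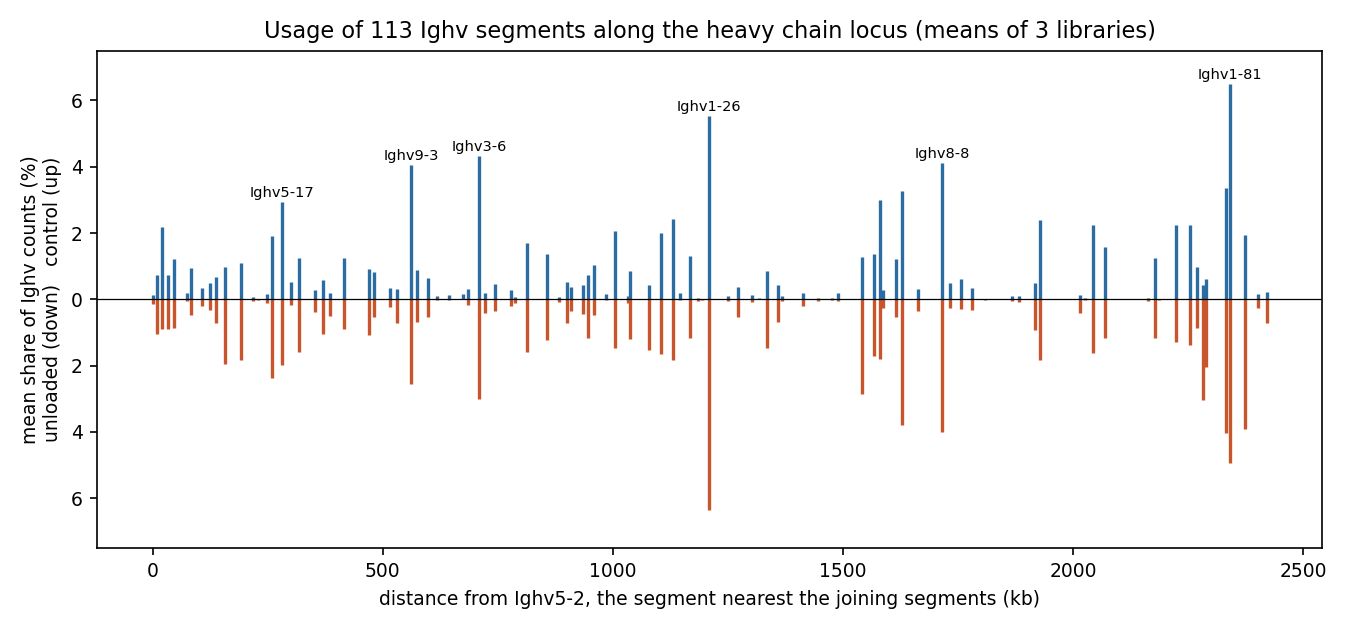
Mean share of Ighv counts (percent) of each of the 113 segments against its distance in kb from Ighv5-2, the segment nearest the J segments, with control means drawn upward and unloaded means downward (n = 3 libraries each). The tall lines of Ighv1-26, Ighv1-81, Ighv8-8 and Ighv3-6 appear in both groups, and lines are found along the whole locus.

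Shares by position along the locus overlapped between groups. The 38 segments nearest the J segments took 23.6%, 31.8% and 27.1% of Ighv counts in control and 24.5%, 22.5% and 28.6% in unloaded libraries. The 38 middle segments took 28.9% ± 2.46 and 28.7% ± 1.94 (SD, n = 3). The 37 distal segments, which all belong to Ighv1 or Ighv8 and reach the J segments only when the locus folds, took 48.5%, 36.4% and 45.7% in control and 46.9%, 50.7% and 40.7% in unloaded libraries. Distal segments thus had the largest share in every library, while they were 32.7% of the members. Control 2 had the lowest distal and the highest proximal share.

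Ighv1 dominated the subgroups. Its 53 segments were 46.9% of members and took 55.8%, 52.0% and 61.4% of Ighv counts in control and 60.9%, 65.3% and 55.1% in unloaded libraries. The groups overlapped, with means of 56.4% ± 4.71 and 60.4% ± 5.12 (SD, n = 3). Ighv1-26 supplied 10.4% of the subgroup's counts. Within it, 36 segments had enough counts to be tested, 19 with a positive and 17 with a negative log2 fold change.

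Ighv5, the subgroup that holds the most J-proximal segment, was the next largest. Its 10 segments took 10.1%, 13.6% and 9.25% in control and 11.2%, 7.09% and 9.08% in unloaded libraries (means 10.98% ± 2.32 and 9.13% ± 2.07). Control 2 was highest and unloaded 2 lowest. Ighv5-2 itself had 8, 11 and 5 counts in control and 11, 8 and 4 in unloaded libraries, too few for the test.

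A single segment supplied over 50% of the counts in 7 of the subgroups with several members: Ighv3, Ighv6, Ighv7, Ighv8, Ighv9, Ighv10 and Ighv11. Ighv8 had 6.26% ± 2.31 in control and 5.64% ± 0.358 in unloaded libraries, and Ighv8-8 supplied 70.2% of its counts. Ighv3 had 5.55% ± 1.61 and 4.06% ± 0.821, with 76.8% from Ighv3-6. Ighv9 had 4.89% ± 2.42 and 3.95% ± 0.748, with 77.7% from Ighv9-3 and its highest value, 7.53%, in control 2. When the most abundant segment of each library was left out, the Ighv9 difference of -0.941 percentage points turned to 1.48, because this step took Ighv9-3 out of control 2 alone.

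Another 7 subgroups also overlapped between groups. The means in control and unloaded libraries were 4.31% and 5.02% for Ighv2, 3.09% and 2.81% for Ighv6, and 3.00% and 2.37% for Ighv14. They were 2.23% and 2.30% for Ighv7, 1.25% and 1.85% for Ighv10, and 0.923% and 1.07% for Ighv11. Ighv6-3 supplied 55.9% of the Ighv6 counts, Ighv7-1 61.7% of Ighv7, Ighv10-3 62.0% of Ighv10, and Ighv11-2 all of Ighv11. The lone member of Ighv4, Ighv4-1, took 2.31% in unloaded 3 (Wilson 95% interval 1.88% to 2.85%) and 0.404% to 0.645% in the other 5 libraries.

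The 4 smallest subgroups each had 1 member. Ighv12-3 and Ighv13-2 had 30 and 89 counts in all, and Ighv16-1 had none. Ighv15-2 had 7, 13 and 9 counts in control and 0, 3 and 2 in unloaded libraries, and its share was the only one of 16 subgroup shares without overlap between groups. With at most 3 counts per unloaded library it was too low for the test.

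**Figure D2:**
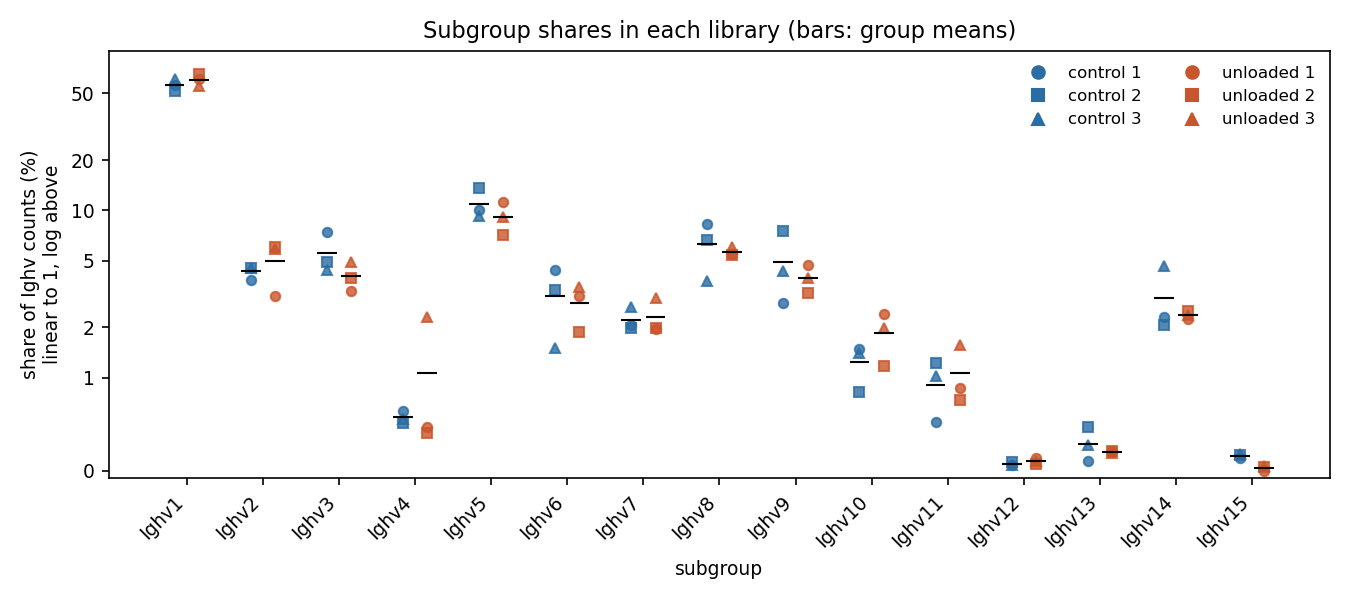
Share of Ighv counts (percent, linear to 1 and logarithmic above) of the 15 subgroups with counts in each library, with a bar at each group mean (n = 3). Ighv1 lies at 52.0% to 65.3% in every library, Ighv5 and the others lie below 14%, and the groups overlap in all subgroups but Ighv15.

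Evenness among segments, read here in place of clonality, was measured in each library, where 92 to 99 segments had counts. The effective number of segments (inverse Simpson index, the number of equally used segments that would give the same concentration) was 35.9, 32.3 and 36.8 in control and 33.1, 32.4 and 36.5 in unloaded libraries. The means were 35.0 ± 2.36 and 34.0 ± 2.20 (SD, n = 3) and the groups overlapped. Between 12 and 15 segments held 50% of the Ighv counts of a library, and the 10 most abundant held 40.2% to 46.7%. Control 2 and unloaded 2, the libraries with the most Ighv counts, were the least even.

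The leading segment differed among libraries. It was Ighv1-81 in control 1 (8.55%, Wilson 95% interval 7.80% to 9.36%), control 3 (7.80%) and unloaded 3 (8.84%). It was Ighv9-3 in control 2 (6.88%), Ighv1-26 in unloaded 1 (8.25%) and Ighv1-82 in unloaded 2 (7.09%). No segment reached 10% of the Ighv counts of any library. When each library was reduced to 3721 Ighv counts, the depth of the shallowest, 97.7, 93.5 and 96.1 segments were expected to be counted in control and 90.3, 95.5 and 92.0 in unloaded libraries, again with overlap.

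**Figure D3:**
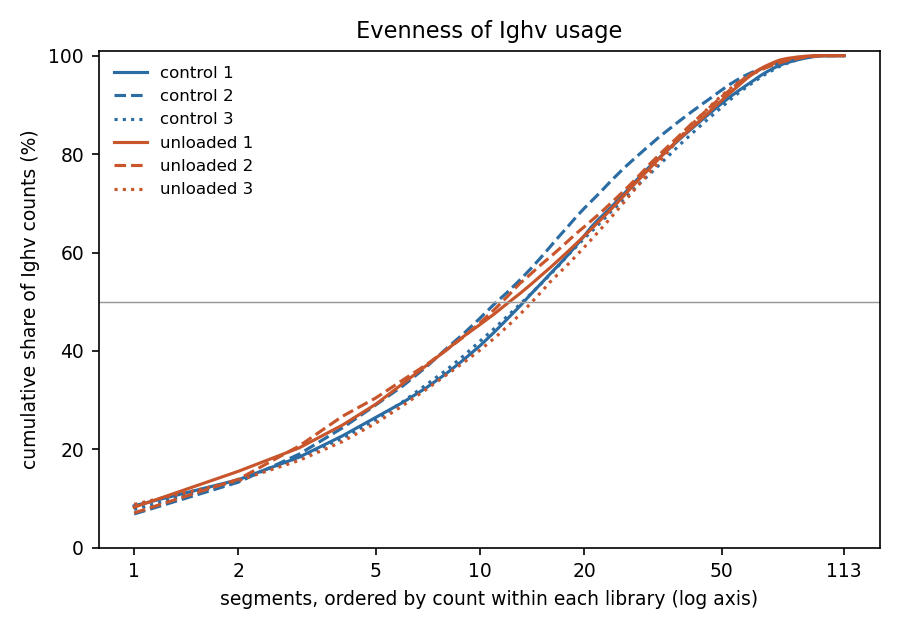
Cumulative share of Ighv counts (percent) against the number of segments, ordered by count within each library (log axis), with 1 line per library and a grey line at 50%. The 6 lines run close together, cross 50% at 12 to 15 segments, and the control and unloaded lines interleave.

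Libraries of the same group used the segments no more alike than libraries of different groups. The percentage of usage that differed between a pair of libraries (50% of the summed absolute differences in share) was 26.5 to 32.7 within control, 30.9 to 32.3 within unloaded and 25.3 to 37.6 between groups. The most alike pair, control 1 and unloaded 3, and the least alike, control 1 and unloaded 1, were both between groups. Segment by segment, the spread between replicates was wide. The median within-group SD of log2 CPM was 0.75 over the 72 tested Ighv segments and 0.93 over 70 Igkv segments, against 0.31 over 6891 other genes in the same CPM range.

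Some segments were high in a single library. Of the 67 segments with at least 100 counts, 6 had more than 50% of their counts in 1 library: Ighv5-4, Ighv5-9-1, Ighv2-9, Ighv1-50, Ighv1-77 and Ighv1-78. Ighv1-77 had 48, 11 and 11 counts in control and 424, 10 and 64 in unloaded libraries. In unloaded 1 it took 7.29% of Ighv counts (Wilson 95% interval 6.65% to 7.99%), 33.5 times the median of the other libraries. Its neighbour Ighv1-78, 90.3% identical as printed above, had 18, 37 and 48 counts in control and 248, 84 and 25 in unloaded libraries, and was also highest in unloaded 1, at 4.26%.

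The other peaks fell in 3 different libraries. Ighv5-9-1 had 30, 109 and 47 counts in control and 277, 58 and 10 in unloaded libraries, highest in unloaded 1. Ighv1-50 had 30, 180 and 43, then 64, 469 and 27 counts, highest in unloaded 2, where it took 6.76%. Only 41.1% of its 50-base stretches were unique. Ighv5-4 had 31, 412 and 30, then 30, 105 and 23 counts, highest in control 2, where it took 5.33%. The unloaded 1 peaks were thus not alone, since control 2 and unloaded 2 each had segments of the same kind.

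**Figure D4:**
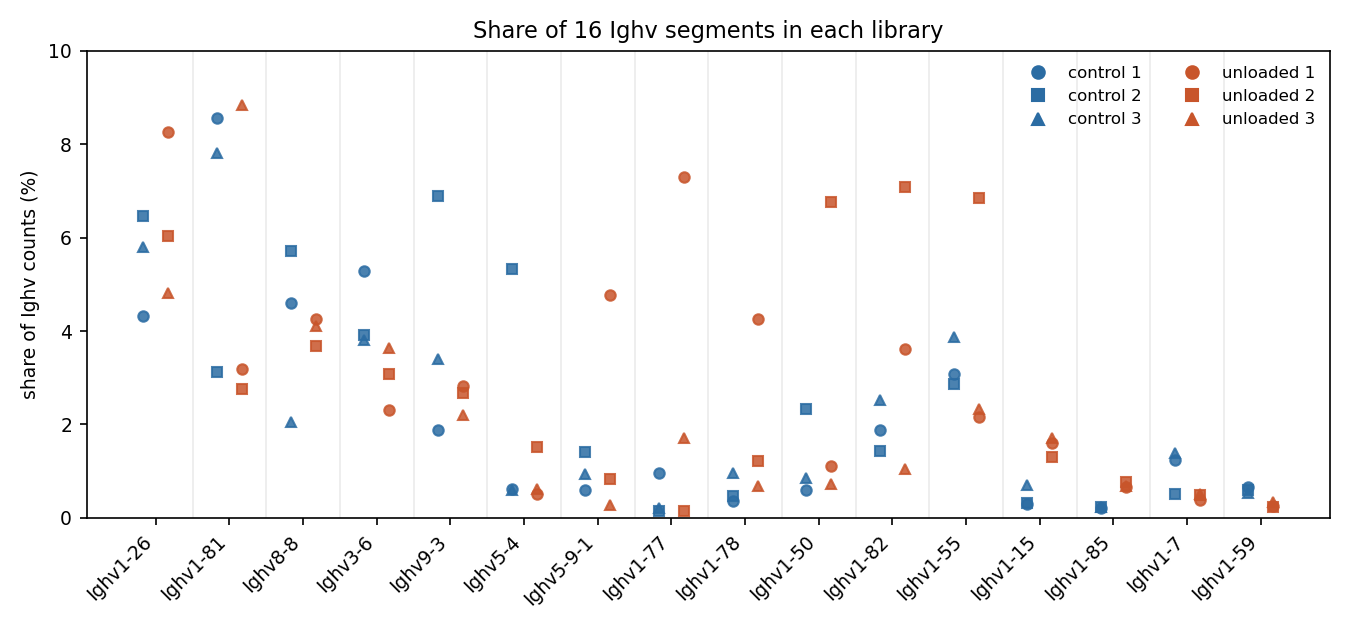
Share of Ighv counts (percent) of 16 named segments in each library, with control libraries left and unloaded libraries right in each column and 1 marker shape per replicate number. Ighv1-77, Ighv1-50 and Ighv5-4 show 1 point far above the rest, and Ighv3-6, Ighv1-15, Ighv1-85, Ighv1-7 and Ighv1-59 show no overlap between groups.

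Whether unloading changed single segments was tested with the quasi-likelihood test of edgeR on the 15015 genes with enough counts, 72 of them Ighv segments. The other 41 segments were too low for the test: 7 had no count and the rest at most 105 in all. No Ighv segment passed an adjusted p of 0.05, nor did any other gene (percent called 0 in each direction). The smallest adjusted p was 0.153 over all genes and 0.313 among Ighv segments. At an unadjusted p under 0.05, 6 Ighv segments had more and 7 had less RNA in unloaded libraries, or 8.33% and 9.72% of those tested, against 2.67% and 3.18% of all tested genes. Over the 72 segments, 33 log2 fold changes were positive and 39 negative, with a median of -0.09, against 0.01 over all tested genes. Leaving out control 2 gave a median of 0.15, leaving out unloaded 3 gave 0.07 and leaving out unloaded 1 gave -0.19.

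The spread between replicates matters for reading those 13 segments. In CPM, 4 of them had groups that did not overlap, 2 above and 2 below. No other of the 72 tested segments separated in CPM, so 2.78% lay entirely above and the same percentage entirely below control, against 5.46% and 6.40% of all tested genes. By share of Ighv counts, which sets each segment against the Ighv sum of its library, 3 of the 72 lay entirely above and 4 entirely below control. The additional ones were Ighv1-66, above, and Ighv3-6 and Ighv1-74, below. A further 4 segments below control by share had too few counts for the test. A share of Ighv counts has no counterpart over all genes, so no background is given for these counts.

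Ighv1-15 had the smallest p-value. Its counts were 15, 24 and 36 in control and 93, 90 and 64 in unloaded libraries, or 0.302%, 0.310% and 0.713% against 1.599%, 1.297% and 1.72% of Ighv counts. All 3 unloaded libraries lay above all 3 control libraries. Levels were 1.47 ± 0.629 and 5.06 ± 1.01 CPM (SD, n = 3). The log2 fold change was 1.78 ± 0.34 (SE; edgeR adjusted p = 0.313, unadjusted p = 0.000312). Ighv1-23, its relative with 7 different bases, had 3, 2 and 1 counts in control and 0, 0 and 6 in unloaded libraries. Without unloaded 1 the log2 fold change was 1.65 (edgeR adjusted p = 0.204).

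DESeq2, run as an alternative on the same genes, called Ighv1-15 with an adjusted p of 0.00209. It called 0.0932% of all tested genes as higher and 0.173% as lower, 40 genes in all, and no other Ighv segment. With unloaded 1 left out, a setting chosen after seeing the data, its adjusted p for Ighv1-15 was 0.0246, and Ighv1-74 was also called, lower at a log2 fold change of -1.43 (adjusted p = 0.0148). Over the edgeR and limma-voom alternatives with a low-count filter the adjusted p of Ighv1-15 ran from 0.204 to 0.999. Without any low-count filter edgeR called 12 of 106 Ighv segments, against 0.326% of 27287 genes as higher and 0.344% as lower. The 6 higher were Ighv1-15, Ighv1-50, Ighv1-77, Ighv1-78, Ighv1-82 and Ighv1-85, and the 6 lower were Ighv1-54, Ighv1-74, Ighv2-9, Ighv3-4, Ighv5-4 and Ighv9-3. Of these 12, Ighv1-15 and Ighv1-85 lay entirely above control and Ighv3-4 entirely below in CPM, and the other 9 overlapped between groups in CPM.

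Ighv1-85, the most distal segment, had 10, 18 and 12 counts in control and 39, 54 and 25 in unloaded libraries. No unloaded library fell within the control range. Its log2 fold change was 1.61 ± 0.40 (SE; edgeR adjusted p = 0.6002), from 0.787 ± 0.266 to 2.40 ± 0.822 CPM (SD, n = 3). Its share was narrow within groups, 0.202% to 0.238% in control and 0.671% to 0.778% in unloaded libraries. Ighv1-66, a segment with the same sign, had 8, 2 and 12, then 22, 44 and 9 counts. Its groups overlapped in CPM but not by share, at 0.0259% to 0.238% in control and 0.242% to 0.634% in unloaded libraries.

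Among segments with less RNA after unloading, Ighv1-7 had 61, 40 and 70 counts in control and 22, 34 and 19 in unloaded libraries. The groups did not overlap, and the log2 fold change was -1.12 ± 0.33 (SE; edgeR adjusted p = 0.711). Ighv1-59 had 33, 46 and 27 counts in control and 15, 16 and 13 in unloaded libraries, also without overlap, at -1.20 ± 0.36 (SE; edgeR adjusted p = 0.724). Their nearest relatives were Ighv1-4, at 96.9% identity, and Ighv1-69, at 96.9%. Ighv1-4 overlapped between groups, with 10, 44 and 17, then 5, 45 and 12 counts (log2 fold change -0.17 ± 0.72, SE). Ighv1-69 had 109, 130 and 146, then 82, 113 and 68 counts, at -0.49 ± 0.23 (SE; edgeR adjusted p = 0.864), and overlapped in CPM. Only 59.6% of its 50-base stretches and 63.2% of those of Ighv1-59 were found in no other Ighv gene or pseudogene.

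The next segments by p-value all overlapped between groups in CPM. Ighv1-54 had 104, 71 and 33, then 16, 26 and 37 counts (log2 fold change -1.33 ± 0.43, SE; edgeR adjusted p = 0.795). Ighv2-9 had 12, 64 and 23, then 15, 5 and 8 counts (-1.75 ± 0.65; adjusted p = 0.804 in edgeR). Ighv3-6, one of the 5 most abundant segments per kb, had 262, 303 and 192, then 134, 213 and 135 counts, at -0.60 ± 0.22 (edgeR adjusted p = 0.804). In CPM only control 3, at 11.3, and unloaded 2, at 12.5, crossed between its groups, while its shares did not overlap. The remaining 3 of the 13 segments were Ighv3-1, with a log2 fold change of 1.47 ± 0.64, and Ighv1-74 and Ighv5-17, at -0.97 ± 0.39 and -0.67 ± 0.29 (SE). Their edgeR adjusted p-values were 0.824, 0.804 and 0.824, and the groups of each overlapped in CPM. The shares of Ighv1-74 did not overlap, at 1.703% to 2.76% in control and 0.490% to 1.685% in unloaded libraries.

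For Ighv1-77 and Ighv1-78 the size of the difference rested on unloaded 1. The log2 fold changes of 2.94 ± 1.04 and 1.87 ± 0.67 (SE; edgeR adjusted p = 0.801 and 0.802) became 0.73 and 0.68 without that library. Ighv5-9-1 changed sign, from 0.97 to -0.85, and so did Ighv1-26, from 0.16 to -0.15. In the same way Ighv5-4 went from -1.56 to 0.85 and Ighv9-3 from -0.84 to 0.19 without control 2, and Ighv1-50 from 1.15 to -0.81 without unloaded 2. With the low-count filter none of these passed the edgeR threshold, with or without the library.

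Of the 41 segments below the test's filter, Ighv3-4 is given as an example chosen after its counts were seen. It is among the 4 such segments below control by share, for which no background is given. Ighv3-4 had 14, 11 and 4 counts in control and 0 in all 3 unloaded libraries, which allows up to 3 counts in each. Ighv3-4 shares no 50-base stretch with another member. With at most 14 counts in any library it was not tested in the reported fit, and no fold is given. Only edgeR without a low-count filter tested it, and called it lower as stated above.

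**Figure D5:**
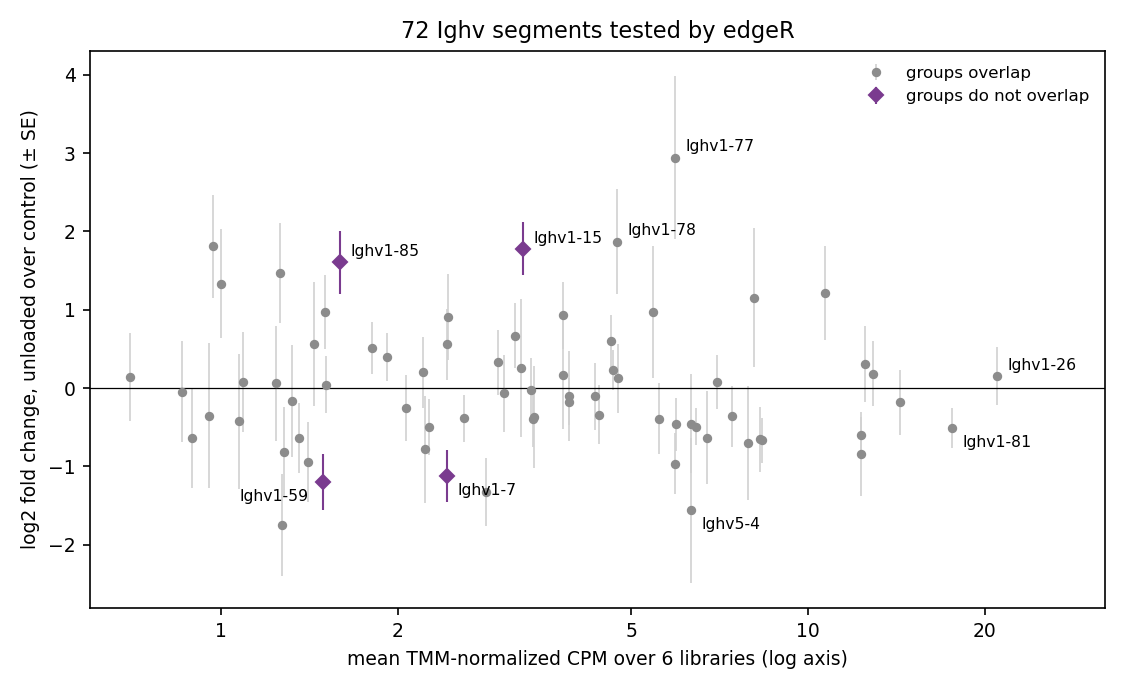
Log2 fold change (unloaded over control, with SE) against mean TMM-normalized CPM (log axis) for the 72 tested Ighv segments, with diamonds for the 4 segments whose groups do not overlap in CPM. Values scatter on both sides of 0 at all levels, Ighv1-15 and Ighv1-85 lie near 1.78 and 1.61, Ighv1-7 and Ighv1-59 near -1.12 and -1.20, and Ighv1-77 at 2.94 has the widest error bar of the named segments.

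Other genes of the same locus were read from a list of 12 constant and joining genes. Of these 11 were tested, none was called by edgeR, 8 had a positive and 3 a negative log2 fold change, and the median was 0.17. Ighg1, the constant gene of IgG1, had 23.1, 31.7 and 21.1 CPM in control and 89.8, 35.0 and 37.7 CPM in unloaded libraries, the only one at an unadjusted p under 0.05 (log2 fold change 1.10 ± 0.32, SE; edgeR adjusted p = 0.718). Its groups did not overlap, unloaded 1 was highest, and its fold change without that library is not given here. The 4 J segments, which are joined next to the V segment, summed to 136, 166 and 204 counts in control and 214, 219 and 146 in unloaded libraries.

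The machinery that joins and transcribes V segments was compared next, and no gene was called by edgeR. Of 10 genes of V(D)J recombination and end joining, 3 had a positive and 7 a negative log2 fold change (median -0.15). Rag1, a subunit of the recombinase, had 99.1, 72.6 and 66.9 CPM in control and 40.9, 63.7 and 46.2 CPM in unloaded libraries, without overlap (edgeR adjusted p = 0.683). Unloaded 1 was lowest for Rag1, and a fold change without that library is not given here. Lig4, the ligase that seals the joined ends, had 13.8 to 16.01 CPM in control and 10.5 to 11.6 CPM in unloaded libraries. These 2, both lower, were the only ones of the list at an unadjusted p under 0.05. Over all tested genes 2.67% were higher and 3.18% lower at that p, and 51.2% of log2 fold changes were positive.

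Of 10 factors of locus folding and V promoter activity, 1 had a positive and 9 a negative log2 fold change (median -0.19). Their summed level was 1685 to 1862 CPM in control and 1499 to 1624 CPM in unloaded libraries, without overlap. Pou2af1, the coactivator that binds octamer factors at V promoters, had 137, 118 and 119 CPM in control and 95.5, 97.3 and 80.1 CPM in unloaded libraries (log2 fold change -0.45 ± 0.12, SE; edgeR adjusted p = 0.6002). Pax5 and Ebf1, factors of B lineage identity, also had an unadjusted p under 0.05, at -0.47 and -0.40. In all, 3 of the 10 were lower at that p, against 3.18% of all tested genes. Of 5 genes of class switching and hypermutation, 1 was positive and 4 negative (median -0.07).

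Markers of the cells that carry Ighv RNA are given beside these values. The 9 pro-B and pre-B markers summed to 365 to 421 CPM in control and 278 to 359 CPM in unloaded libraries, without overlap, with 2 positive and 7 negative and a median log2 fold change of -0.24. Vpreb3, a protein of the pre-B stage, had 49.1, 41.4 and 49.9 CPM in control and 26.6, 33.0 and 24.3 CPM in unloaded libraries (-0.74 ± 0.14 SE, edgeR adjusted p = 0.313). Vpreb3 and Rag1 were the 2 of these 9 at an unadjusted p under 0.05, against 3.18% of all tested genes as lower. The 10 mature B markers summed to 1013 to 1190 CPM in control and 853 to 1179 CPM in unloaded libraries. Of them 4 were positive and 6 negative, with a median of -0.01. The 11 plasma cell markers summed to 665 to 821 CPM and 677 to 779 CPM, with 4 positive and 7 negative and a median of -0.23. Sdc1, a surface proteoglycan of plasma cells, was alone at an unadjusted p under 0.05 (-0.61 ± 0.21 SE, edgeR adjusted p = 0.801). None of these markers was called, and their part in the segment values was not tested.

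Markers of other marrow cells were all detected. The 7 T cell markers summed to 48.6 to 58.7 CPM in control and 55.1 to 90.2 CPM in unloaded libraries. All 7 log2 fold changes were positive (median 0.49), against 51.2% of those over all tested genes. The 5 erythroid markers summed to 2217 to 2601 and 2699 to 3560 CPM, without overlap, and the 5 neutrophil markers to 24586 to 28246 and 22433 to 28158 CPM. Without unloaded 1, 5 of 15438 tested genes were called, none of them an Ighv segment or a gene of these lists. In that fit the pro-B and pre-B markers had 0 higher and 5 lower at an unadjusted p under 0.05 and a median of -0.26, against 3.81% of all tested genes as higher and 5.18% as lower. The mature B markers had 0 and 4 and a median of -0.09, where the fit of all 6 libraries had none. The genes of V(D)J recombination had 0 and 3, the folding and promoter factors 0 and 2 with a median of -0.15, the plasma cell markers 0 and 2, the T cell markers 2 and 0, the erythroid markers 3 and 0 and the neutrophil markers 0 and 1. The constant and joining genes had 1 and 1, and the genes of class switching and hypermutation 0 and 0.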

How the data were processed

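Total RNA of 6 libraries, 3 control and 3 unloaded, was sequenced, and each library was grouped by its title. Raw counts of reads per gene were deposited by the authors, as whole numbers with differing totals show. CASAVA, HISAT2 2.0.5, featureCounts 1.5.0-p3 and mm10 are named per the submitters' processing notes. Whether strand was used, and how multiple alignments were treated, is not given in the sources used here. The samples' totals limit precision as stated in the report.

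Genes passing edgeR's filterByExpr (15015 genes) were scaled by TMM and compared with glmQLFit and glmQLFTest (edgeR 4.0.16, R 4.3.3), with Benjamini-Hochberg adjustment over all of them and a threshold of 0.05. The SE of a log2 fold change was its ratio to the root of F, and a prior count of 2 entered log2 CPM. Summed levels, shares and evenness were described without a test, since 3 against 3 cannot go below 0.1 in an exact permutation test. Coding sequences came from GENCODE M21. DESeq2 1.42.0 and limma-voom (limma 3.58.1) were alternatives, with the others given under the limits.

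The members, gene lists and rules were chosen with earlier results of these data known. Segments named were the 10 with the largest mean share, the top of each library, the 5 of smallest p either way, the 5 most raised in a single library with at least 100 counts there, and the first and last along the locus. Other segments were named after their values were seen. The labels state no pairing of libraries by replicate number, and none was used in the reported fit. Same-numbered libraries had correlations of deviations of 0.0309, -0.0633 and 0.0185 over all tested genes. Over the tested Ighv segments they were 0.00486, 0.104 and -0.144. With 3 libraries per group these values cannot exclude a pairing.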

Additional observations from a re-analysis of the deposited data

How the results depend on the processing

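Of 542 recomputed values, 495 kept their direction and side of the threshold or stayed within the spread between replicates. The number of genes called over the whole table was 0 in the reported fit, 40 with DESeq2, 183 without a low-count filter, 73 with DESeq2 without unloaded 1 (chosen after seeing the data) and 0 to 5 with each library left out, the 5 being without unloaded 1. For Ighv segments the number called was 0, and it was 1, 12, 2 and 0 to 0 under the same settings. Ighv segments at an unadjusted p under 0.05 numbered 13 in the reported fit, 36 without a low-count filter and 13 to 18 with each library left out. The replicate numbers pair nothing in the labels, and with the replicate number as a block 1 gene and 0 Ighv segments were called, with 20 segments at an unadjusted p under 0.05. The Ighv9 share difference, -0.941 percentage points, was 1.48 without the most abundant segment of each library. With a library left out, the share difference took both signs for Ighv4, Ighv6, Ighv7, Ighv8, Ighv9, Ighv11, Ighv13 and Ighv14. It ran from -1.07 to 0.38 for Ighv6, from -1.87 to 0.41 for Ighv8 and from -1.11 to 0.19 for Ighv14. These shifts stayed within the spread between replicates. Ighv1, Ighv2, Ighv3, Ighv5, Ighv10, Ighv12 and Ighv15 kept their sign.

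None of the following segments was called with a low-count filter, and each changed sign. With a library left out, log2 fold changes ran from -0.15 to 0.58 for Ighv1-26, from -0.56 to 0.48 for Ighv8-8, from -0.22 to 0.57 for Ighv1-80 and from -0.74 to 0.69 for Ighv1-55. They ran from -1.25 to 0.19 for Ighv9-3, from -2.50 to 0.85 for Ighv5-4, from -0.81 to 2.39 for Ighv1-50, from -0.85 to 1.68 for Ighv5-9-1, and from -0.32 to 0.15 for the median of the tested segments. With DESeq2 without unloaded 1 they were -0.15 for Ighv1-26, -0.0111 for Ighv1-80 and -0.87 for Ighv5-9-1. Limma-voom gave 0.0329 for Ighv8-8 and -0.0289 for Ighv1-55, and the replicate block gave -0.00422 for Ighv1-55. The cause was not tested. Ighv1-15 ran from 1.5 to 2.13, Ighv1-85 from 1.34 to 1.90, Ighv1-7 from -1.37 to -0.95 and Ighv1-59 from -1.36 to -0.94 with a library left out. The summed level difference ran from -48.63 to 46.23 CPM, and the difference in the effective number of segments from -2.29 to -0.07. Depth limited 41 segments, which had too few counts for the test.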

Other observations

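The Ighv genes listed as pseudogenes were outside the comparisons above. Of 70, 25 had at least 1 count, and together they had 118, 127 and 125 counts in control 1 to 3 and 59, 104 and 97 in unloaded 1 to 3. These were 1.00% to 2.54% of the segment and pseudogene counts together. In CPM these sums were 6.75, 7.66 and 7.34 in control and 3.76, 6.13 and 5.99 in unloaded libraries, so all unloaded libraries lay below all control libraries, with unloaded 1 the lowest. Ighv1-41 had the most, with 37, 62 and 47 counts in control and 21, 55 and 52 in unloaded libraries. Ighv8-10 followed with 54, 26 and 29, then 18, 16 and 12 counts, and Ighv1-83 with 13, 20 and 28, then 2, 7 and 11. How reads were divided between these genes and the segments was not tested. No p-value is given for a sum chosen after its values were seen.

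Heavy chain D segments, short pieces joined between V and J, had 1, 2 and 6 counts in control and 4, 9 and 4 in unloaded libraries over 19 genes, of which 7 had any count.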
